A study of Rattus norvegicus with 11 samples.

Results

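Epithelial cells are held together by junctions, carry keratin filaments in their cytoplasm, and depend on a small set of regulators that keep these genes on. The 36 genes described here cover that programme: the adherens junction cadherin Cdh1, 9 tight junction genes, 6 desmosome genes, 5 keratins, 7 splicing and transcription regulators, 4 membrane proteases and their inhibitors, and 4 genes of the apical surface, polarity and trafficking. They were chosen by name, with earlier results of these data known. A probe belonged to a member when its gene symbol on the array platform, current or earlier, was that of the member. All 36 were on the array, among 16898 named genes. Where a gene had more than 1 probe, the brightest on average stands for it.

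The arrays measured rat RNA from cell lines and from exosomes, the small vesicles that cells release. ASTspan8 exosome RNA, from exosomes of pancreatic adenocarcinoma cells, was measured on 2 arrays, and ASML cells, labelled pancreatic adenocarcinoma, on 1 array with CD44 knock-down and 1 array as wild type. Endothelial cells (EC) were measured after ASTspan8 exosomes (2 arrays), after AS exosomes (1 array) and as untreated control (1 array). RF cells, labelled as endothelial fibroblasts, were measured after ASTspan8 exosomes, after AS exosomes and untreated, on 1 array each. All lines, treated or not, grew in RPMI medium to which serum and the selection drug G418 had been added. AS is a rat pancreatic adenocarcinoma line of low metastatic capacity, ASTspan8 is the same line carrying the tetraspanin Tspan8, and ASML is a separate, highly metastatic line. The donor cells of the exosomes were not measured here, so exosome RNA is set against ASML and against EC and RF, never against its own donor. Nothing in the labels says whether 2 arrays of a group came from separate cultures, so the p-values reflect the spread between arrays alone, which may be technical. The labels do not say whether the knock-down line was a single clone.

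In an epithelium, claudins and occludin seal the space between neighbouring cells, E-cadherin (Cdh1) ties the cells to each other, and desmosomes link the keratin filaments of one cell to those of the next. The splicing regulator Esrp1 and the transcription factors Grhl2, Elf3 and Klf5 are known to maintain these genes. The zinc finger repressors Zeb1 and Snai2, which are active in fibroblasts and in carcinoma cells that lose epithelial character, bind CACCTG sequences in the promoters of several of them. Endothelial cells and fibroblasts make junctions of their own with other cadherins and claudins, and mostly without keratins.

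Levels below are log2 of the deposited intensity, with values under 62.25 (log2 5.96) raised to that floor, differences are on the same log2 scale, and the arrays' median intensities lay between 156.5 and 165.4. The labels were checked against their genes. Tspan8 had 10.16 and 10.28 in exosome RNA, 13.06 on the CD44 knock-down array, 13.8 on the ASML wild-type array and 6.3 to 6.65 on the EC and RF arrays. The brightest Cd44 probe had 12.3 on the knock-down array, against 13.56 on the wild-type array, whereas 2 dimmer Cd44 probes were higher on the knock-down array (8.79 against 8.28, and 8.77 against 7.43). That brightest Cd44 probe also split the exosome pair, with 11.11 on the array labelled replicate 1 and 6.02 on the other. Over the 18619 probes that passed the filter on low values, the exosome pair differed at least 2-fold for 358 probes and the EC pair for 9. Of the 36 members, 3 (Ocln, Krt20 and Lgals4) were that far apart in the exosome pair and 0 in the EC pair. Of 18 endothelial marker genes on the array, 1 to 3 lay above the 75th percentile on the EC and RF arrays. Pecam1 had 7.27 to 7.5 and Kdr 6.26 to 6.52 on the EC arrays, while Vwf had 8.88 to 10.44 on the EC arrays and 8.82 to 9.83 on the RF arrays. Egfl7 (10.44 to 10.75), Eng (9.95 to 10.47), Robo4 (8.21 to 9.18) and Cdh5 (7.87 to 8.36) were brighter than Pecam1 and Kdr on the EC arrays. Of these brighter genes, only Eng lay above all RF arrays (9.27 to 9.69). The dimmer Pecam1 also lay above all RF arrays (6.53 to 7.04). On each EC array 6 or 7 of the 18 lay above the array median, so most of the list was dim there. Of 25 mesenchymal and fibroblast genes, 6 lay above the 75th percentile in each exosome RNA array, 3 on each ASML array, and 16 to 17 on the EC and RF arrays, and of 15 leukocyte genes 0 to 2 did on any array. For the untreated RF array, the source name given is endothelial cell lines, but its title and cell type give RF.

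Most of the epithelial genes were far higher in ASML cells than in EC and RF cells. Of the 36 genes, 31 were higher in ASML (86.1%, where 22.9% of all probes tested were), none was lower, at an adjusted or an unadjusted p under 0.05 (17.9% of all probes tested were lower), Tjp1 did not pass, and 4 dim genes (Krt20, Dsg2, Grhl1 and Ehf) were not tested. Of the 32 members that passed the filter on low values, 16 did so through ASML arrays alone. For these 16, a higher value in ASML was partly fixed by the filter. Without that filter 34 of 36 were higher, and the share of all probes without it is not given here. The median difference over all 36 members was 3.25, and over all probes tested 0.1. The level was higher on both ASML arrays than on all 7 EC and RF arrays for 34 of the 36 (21.8% of all probes tested), the exceptions being Krt20 and Esrp2. The fit set the mean of ASML against the mean of EC and RF, so treatment and knock-down counted as spread. In RNA from whole cultures, fewer cells that make a transcript and less transcript per cell cannot be told apart.

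**Figure D1:**
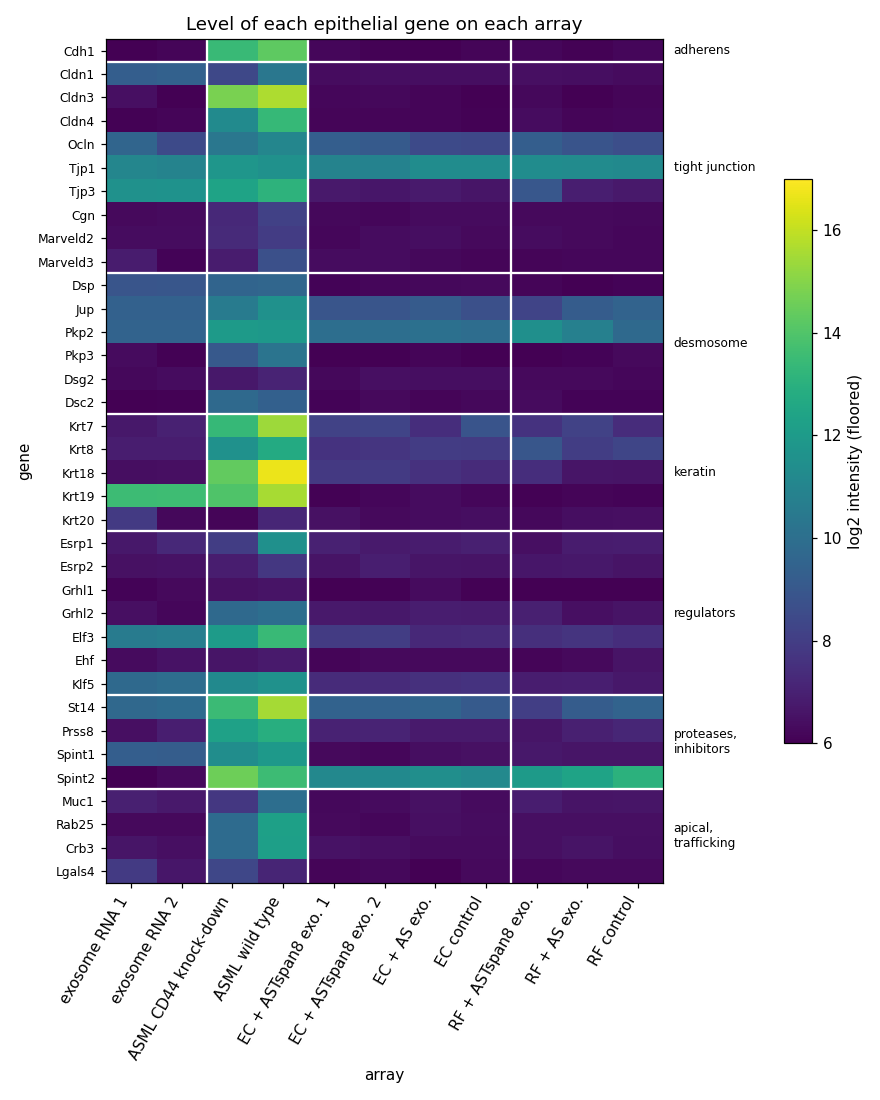
Log2 intensity (floored) of each of the 36 genes (rows, grouped by role) on each of the 11 arrays (columns), with colour for the level. The ASML columns are bright for most rows, the exosome RNA columns are bright for few (Krt19, at 13.54 and 13.6, and Tjp3, at 11.55 and 11.6, among them), and most rows are dim in the EC and RF columns, where Tjp1, Spint2, Pkp2, Jup, St14 and Ocln are among the brighter ones and Krt7 (7.39 to 8.85) and Krt8 (7.6 to 8.93) lie in between.

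Promoter sequence is shown because so many members were higher in ASML together. The windows run from 250 bases before to 50 after the gene start, from RefSeq on the GRCr8 assembly, and 23 of the 36 members had an entry. The motif CACCTG, or its reverse complement CAGGTG, the form bound by Zeb1 and Snai2, was found in 15 of 23 members (65.2%) and in 5121 of 27457 promoters of the same length (18.7%). The core AACNNGTT, which is its own reverse complement and is bound by grainyhead factors such as Grhl2, was found in 4 of 23 members (17.4%) and in 1134 of 27457 promoters (4.13%). Members' windows were also richer in G and C, with a median of 60.7%, against 52.3% over all promoters, and the part of base composition in the motif shares was not tested. The windows of 5 members are printed 5′ to 3′, with either motif in capitals: the claudin Cldn3, the scaffold Tjp3, the trafficking gene Rab25 (which holds both motifs), the polarity gene Crb3 and the inhibitor Spint2. No 2 of these matches overlap. All 5 printed windows hold CACCTG or CAGGTG, and windows without it, such as those of Krt18, Cldn1 and Klf5, are not printed. Krt20 and Dsg2, which were not tested in ASML against EC and RF, are among the 15 with it. A match describes the letters only, not a bound site.
Cldn3, chr12:27346498-27346797, reverse strand: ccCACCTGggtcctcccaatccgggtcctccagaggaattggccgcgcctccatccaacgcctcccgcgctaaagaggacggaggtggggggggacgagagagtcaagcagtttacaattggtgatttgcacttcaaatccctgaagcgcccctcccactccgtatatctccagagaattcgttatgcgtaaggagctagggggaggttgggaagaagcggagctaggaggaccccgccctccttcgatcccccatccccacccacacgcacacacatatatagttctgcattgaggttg
Tjp3, chr7:9084174-9084473, forward strand: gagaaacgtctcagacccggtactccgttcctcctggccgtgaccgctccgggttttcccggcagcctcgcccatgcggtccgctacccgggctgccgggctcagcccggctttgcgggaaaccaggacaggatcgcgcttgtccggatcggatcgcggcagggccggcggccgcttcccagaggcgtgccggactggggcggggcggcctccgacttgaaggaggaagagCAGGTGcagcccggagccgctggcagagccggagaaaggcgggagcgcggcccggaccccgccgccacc
Rab25, chr2:176304172-176304471, reverse strand: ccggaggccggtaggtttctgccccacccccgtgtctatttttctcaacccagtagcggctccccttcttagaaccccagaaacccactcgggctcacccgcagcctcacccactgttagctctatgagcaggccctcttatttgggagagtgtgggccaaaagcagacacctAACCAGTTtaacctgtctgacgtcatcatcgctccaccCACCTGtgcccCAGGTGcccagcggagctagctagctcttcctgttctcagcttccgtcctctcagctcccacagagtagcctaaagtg
Crb3, chr9:1987504-1987803, forward strand: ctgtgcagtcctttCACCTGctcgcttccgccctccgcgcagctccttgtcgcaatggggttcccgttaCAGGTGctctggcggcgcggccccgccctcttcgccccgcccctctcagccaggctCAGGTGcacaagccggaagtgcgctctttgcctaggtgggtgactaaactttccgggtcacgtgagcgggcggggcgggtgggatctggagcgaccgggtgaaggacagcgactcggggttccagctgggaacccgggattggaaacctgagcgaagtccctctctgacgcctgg
Spint2, chr1:93708042-93708341, reverse strand: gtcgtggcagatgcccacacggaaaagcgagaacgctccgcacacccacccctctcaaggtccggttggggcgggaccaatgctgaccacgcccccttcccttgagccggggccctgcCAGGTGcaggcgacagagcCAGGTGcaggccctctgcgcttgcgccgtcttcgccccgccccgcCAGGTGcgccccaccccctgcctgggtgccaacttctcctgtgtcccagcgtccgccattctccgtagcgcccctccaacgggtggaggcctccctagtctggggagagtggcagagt

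Cdh1, the adhesion receptor of the adherens junction, was high on the ASML arrays and at the low end of the scale on the other 9. Its level was 5.99 and 6.13 in exosome RNA (the array labelled replicate 1 first, here and below), 13.45 on the CD44 knock-down array and 14.26 on the ASML wild-type array. On the 7 EC and RF arrays it was 6.01 at the lowest, 6.13 at the median and 6.19 at the highest, so exosome RNA lay within or at the edge of their range. The difference of ASML from EC and RF was 7.73 ± 0.19 (SE, adjusted p = 5.13e-10, limma), and that of exosome RNA from EC and RF was -0.06 ± 0.19.

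Among the tight junction genes, Cldn3 and Cldn4 were high on the ASML arrays, and Cldn1 and Tjp3 were high on the ASML and exosome RNA arrays. Cldn3, a sealing claudin, had 6.44 and 5.98 in exosome RNA, 14.78 in CD44 knock-down ASML, 15.64 in wild-type ASML, and 6 to 6.23 (median 6.16) in EC and RF. Cldn4, a claudin that limits ion passage, had 6.08 and 6.17 in exosome RNA, 11.25 in knock-down ASML, 13.38 in wild-type ASML, and 6.05 to 6.36 (median 6.16) in EC and RF. Both claudins were far higher in ASML than in EC and RF, by 9.07 ± 0.22 for Cldn3 (adjusted p = 3.99e-10) and 6.14 ± 0.4 for Cldn4 (adjusted p = 4.87e-07). Cldn1, which is needed for barrier function in skin, stood apart from these, with 9.3 and 9.4 in exosome RNA, 8.4 in knock-down ASML, 10.36 in wild-type ASML, and 6.31 to 6.45 (median 6.4) in EC and RF. Tjp3, a scaffold of the junction plaque, had 11.55 and 11.6 in exosome RNA, 12.36 in knock-down ASML, 13.09 in wild-type ASML, and 6.61 to 8.97 (median 6.76) in EC and RF, the highest being RF after ASTspan8 exosomes. In exosome RNA, Cldn1 was higher than in EC and RF by 2.96 ± 0.37 (adjusted p = 9.37e-05) and Tjp3 by 4.45 ± 0.47 (adjusted p = 2.79e-05). In ASML, the differences from EC and RF were 2.99 ± 0.37 for Cldn1 (adjusted p = 8.26e-05) and 5.6 ± 0.47 for Tjp3 (adjusted p = 4.28e-06).

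The other tight junction genes differed less. Ocln, the transmembrane protein occludin, had 9.58 and 8.46 in exosome RNA, 10.35 in knock-down ASML, 11.07 in wild-type ASML and 8.37 to 9.3 in EC and RF. Its difference of ASML from EC and RF was 1.83 ± 0.35 (adjusted p = 0.0017). Cgn, the plaque protein cingulin, had 6.3 and 6.31 in exosome RNA, 7.28 in knock-down ASML, 8.11 in wild-type ASML and 6.19 to 6.34 in EC and RF. Marveld2 and Marveld3, tetraspan proteins related to occludin, reached 7.96 and 8.67 in wild-type ASML, with differences from EC and RF of 1.36 ± 0.17 and 1.53 ± 0.37. The Marveld3 call rested on the wild-type array, since without it the difference was 0.62 (adjusted p = 0.0675). Tjp1, a scaffold that many cell types use, was bright everywhere. It had 11.04 and 10.94 in exosome RNA, 11.76 in knock-down ASML, 11.55 in wild-type ASML and 10.88 to 11.36 in EC and RF, and ASML did not pass against EC and RF (0.44 ± 0.17, adjusted p = 0.0633).

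Desmosome genes differed in how far they were shared. Dsp, the plaque protein desmoplakin that binds keratin filaments, had 8.92 and 8.93 in exosome RNA, 9.54 in knock-down ASML, 9.65 in wild-type ASML and 6.04 to 6.26 (median 6.13) in EC and RF. Both exosome RNA arrays and both ASML arrays lay above every EC and RF array. The difference from EC and RF was 2.78 ± 0.13 for exosome RNA (adjusted p = 3.65e-08) and 3.45 ± 0.13 for ASML. Dsc2, a desmosomal cadherin, had 6.02 and 6.06 in exosome RNA, 9.75 in knock-down ASML, 9.36 in wild-type ASML and 6.1 to 6.31 in EC and RF. Pkp3, a plakophilin of the plaque, had 6.34 and 6.07 in exosome RNA, 9.08 in knock-down ASML, 10.25 in wild-type ASML and 5.96 to 6.28 in EC and RF. These 2 were higher in ASML by 3.37 ± 0.15 for Dsc2 and 3.6 ± 0.25 for Pkp3, and in exosome RNA neither passed (-0.14 and 0.14). Pkp2, a plakophilin also used outside epithelia, had 9.49 on both exosome RNA arrays, 12.01 in knock-down ASML, 11.86 in wild-type ASML and 9.74 to 11.49 in EC and RF. Jup, plakoglobin, which desmosomes and adherens junctions share, had 9.4 and 9.42 in exosome RNA, 10.59 in knock-down ASML, 11.58 in wild-type ASML and 8.26 to 9.51 in EC and RF. Pkp2 and Jup were thus present in all sources and still higher in ASML, by 1.6 ± 0.33 (adjusted p = 0.00309) and 2.13 ± 0.32. Dsg2, a desmosomal cadherin that was not tested, did not exceed 7.09 on any array.

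Of the 5 keratins, 4 were above the array median on each ASML array, Krt20 being the exception, and of these 4 only Krt19 was also high in exosome RNA. Krt18, the type I partner of Krt8 in simple epithelia, had 6.41 and 6.46 in exosome RNA, 14.35 in knock-down ASML, 16.68 in wild-type ASML and 6.56 to 7.85 (median 7.46) in EC and RF. Krt8 had 6.86 and 6.89 in exosome RNA, 11.56 in knock-down ASML, 12.72 in wild-type ASML and 7.6 to 8.93 (median 7.94) in EC and RF. Krt7, a keratin of ducts, had 6.72 and 7.02 in exosome RNA, 13.39 in knock-down ASML, 15.4 in wild-type ASML and 7.39 to 8.85 (median 8.15) in EC and RF. For these 3 keratins both exosome RNA arrays lay below every EC and RF array. Krt19, a type I keratin of pancreatic and bile ducts, went the other way, with 13.54 and 13.6 in exosome RNA, 13.96 in knock-down ASML, 15.56 in wild-type ASML and 6.05 to 6.36 (median 6.16) in EC and RF. In exosome RNA it was higher than in EC and RF by 7.41 ± 0.31 (adjusted p = 1.68e-08), and in ASML by 8.6 ± 0.31 (adjusted p = 5e-09). Exosome RNA was lower than EC and RF for Krt8 (-1.22 ± 0.3, adjusted p = 0.00754), but this call was lost without either exosome RNA array (adjusted p = 0.0548 and 0.0658), and Krt7 (-1.07, adjusted p = 0.0892) and Krt18 (-0.83 ± 0.47, adjusted p = 0.178) did not pass. Without either ASML array, Krt7 and Krt18 did pass as lower (adjusted p = 0.0204 and 0.0165), as they did against untreated EC and RF alone in the fit of 9 group means (adjusted p = 0.00262 and 0.00309). In ASML the differences from EC and RF were 8.25 ± 0.47 for Krt18, 6.45 ± 0.47 for Krt7 and 4.04 ± 0.3 for Krt8. Krt20, a keratin of intestinal epithelium, was not tested; it had 7.85 and 6.22 in exosome RNA, 6.17 in knock-down ASML, 7.19 in wild-type ASML and 6.25 to 6.48 in EC and RF.

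Of the regulators, the transcription factors Elf3 and Klf5 were high in ASML and in exosome RNA. Elf3, an ETS factor of epithelia, had 10.59 and 10.72 in exosome RNA, 12.04 in knock-down ASML, 13.44 in wild-type ASML and 7.27 to 8.01 (median 7.48) in EC and RF. Klf5, a Krüppel-like factor of proliferating epithelium, had 9.75 and 9.93 in exosome RNA, 11.24 in knock-down ASML, 11.56 in wild-type ASML and 6.7 to 7.59 (median 7.36) in EC and RF. Exosome RNA was higher than EC and RF by 3.08 ± 0.32 for Elf3 (adjusted p = 2.79e-05) and 2.69 ± 0.15 for Klf5 (adjusted p = 1.88e-07), and ASML by 5.16 ± 0.32 and 4.25 ± 0.15. Esrp1, an RNA-binding protein that sets epithelial splicing, was high mainly on the wild-type array. It had 6.72 and 7.28 in exosome RNA, 7.98 in knock-down ASML, 11.5 in wild-type ASML and 6.44 to 7 (median 6.83) in EC and RF. Grhl2, a grainyhead factor that maintains junction genes, had 6.44 and 6.19 in exosome RNA, 9.75 in knock-down ASML, 9.96 in wild-type ASML and 6.43 to 6.97 in EC and RF. Neither Esrp1 (0.19) nor Grhl2 (-0.41) passed in exosome RNA against EC and RF, and in ASML they were higher by 2.93 ± 0.64 (adjusted p = 0.0041) and 3.13 ± 0.17. Against untreated EC and RF alone, in the fit of 9 group means, Grhl2 passed as lower in exosome RNA (-0.37, adjusted p = 0.0448). A second, dimmer Grhl2 probe read 7.02 and 7.1 on the knock-down and wild-type ASML arrays and did not set them apart. Esrp2, which shares the role of Esrp1, was higher in ASML by only 0.67 ± 0.21 (adjusted p = 0.0286), a call lost without the wild-type array (0.22, adjusted p = 0.376). Grhl1 and Ehf, not tested, stayed at or under 6.78 on all arrays.

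Among the membrane proteases and inhibitors, Spint2 set exosome RNA apart from every cell line. Spint2, an inhibitor of serine proteases at the cell surface, had 6.02 and 6.3 in exosome RNA, 14.56 in knock-down ASML, 13.55 in wild-type ASML and 11.13 to 13.07 (median 11.44) in EC and RF. It was lower in exosome RNA than in EC and RF, with a difference of -5.7 ± 0.3 (adjusted p = 9.02e-08), and higher in ASML by 2.19 ± 0.3 (adjusted p = 0.00017). Its relative Spint1, which inhibits the protease St14, had 9.28 and 9.23 in exosome RNA, 11.38 in knock-down ASML, 11.89 in wild-type ASML and 6.21 to 6.69 (median 6.49) in EC and RF. Spint1 was higher in exosome RNA than in EC and RF by 2.76 ± 0.16 (adjusted p = 2.36e-07) and in ASML by 5.14 ± 0.16, so the 2 inhibitors had opposite signs in exosome RNA. St14, the transmembrane protease matriptase, had 9.73 and 9.83 in exosome RNA, 13.48 in knock-down ASML, 15.52 in wild-type ASML and 8.06 to 9.54 (median 9.45) in EC and RF. Prss8, the protease prostasin that works with matriptase, had 6.43 and 6.92 in exosome RNA, 12.31 in knock-down ASML, 12.89 in wild-type ASML and 6.63 to 7.2 in EC and RF. In ASML, St14 was higher by 5.34 ± 0.47 and Prss8 by 5.67 ± 0.22, and in exosome RNA neither passed (0.62 and -0.26), though St14 did against untreated EC and RF alone in the fit of 9 group means (0.47, adjusted p = 0.00596).

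Of the 4 apical and trafficking genes, 3 (Rab25, Crb3 and Muc1) lay above the array's median in wild-type ASML, and Lgals4 did not. Rab25, a small GTPase of apical recycling, had 6.3 and 6.27 in exosome RNA, 9.86 in knock-down ASML, 12.24 in wild-type ASML and 6.18 to 6.47 in EC and RF. Crb3, a polarity protein of the apical membrane, had 6.63 and 6.44 in exosome RNA, 9.85 in knock-down ASML, 12.22 in wild-type ASML and 6.31 to 6.56 in EC and RF. Muc1, a transmembrane mucin, had 6.96 and 6.76 in exosome RNA, 7.8 in knock-down ASML, 9.98 in wild-type ASML and 6.25 to 6.87 in EC and RF. The differences of ASML from EC and RF were 4.66 ± 0.44 for Rab25, 4.6 ± 0.44 for Crb3 and 2.37 ± 0.41 for Muc1 (adjusted p = 0.000906), and none of the 3 passed in exosome RNA, though Muc1 did against untreated EC and RF alone in the fit of 9 group means (0.40, adjusted p = 0.0283). Lgals4, a galectin of gut epithelium, had 7.89 and 6.66 in exosome RNA, 8.36 in knock-down ASML, 7.12 in wild-type ASML and 6.04 to 6.28 in EC and RF. Its duplicate exosome RNA values were over 2-fold apart, though not on its second probe (6.33 and 6.66), and its calls moved with the arrays used. It was higher in ASML by 1.53 ± 0.33 (adjusted p = 0.00392), which was lost without the knock-down array (0.91, adjusted p = 0.0554) and for wild-type ASML against untreated EC and RF in the fit of 9 group means (0.84, adjusted p = 0.259). In exosome RNA it was higher by 1.07 ± 0.33 (adjusted p = 0.0242), which was lost without the array labelled replicate 1 (0.45, adjusted p = 0.404), with the mean of its probes (0.62, adjusted p = 0.0874) and in the fit of 9 group means (0.99, adjusted p = 0.133).

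Few members were higher in exosome RNA than in EC and RF. Against EC and RF, 8 of the 36 members were higher (22.2%, where 21.6% of all probes tested were) and 2 were lower (5.56%, where 22.1% were). The share of members that were higher was therefore close to that of all probes, and the median over all 36 members was 0.11, against -0.06 over all probes tested. The 36 include 4 members that were not tested. Many others lay near the floor in EC and RF, such as Cdh1 (6.01 to 6.19) and Cldn3 (6 to 6.23), with little room to be lower. How far this set the low share of lower calls was not tested. That share also moved with the fit. In the fit of 9 group means, which sets exosome RNA against untreated EC and RF alone, 10 members were higher (27.8%, where 31% of all probes tested were). In that fit 7 were lower (19.4%, where 32.3% were). Members lower there but not in the fit of source means were Krt7 (-1.25), Krt18 (-0.52), Grhl2 (-0.37), Pkp2 (-0.35) and Tjp1 (-0.31), and those higher were St14 (0.47), Muc1 (0.40) and Jup (0.32). In the fit of source means, the 8 higher were Cldn1, Tjp3, Krt19, Dsp, Elf3, Klf5, Spint1 and Lgals4, and the 2 lower were Krt8 and Spint2. Both exosome RNA arrays were above all EC and RF arrays for 9 of 36 (26.2% of all probes tested) and below them for 7 (27.1%). Of 25 mesenchymal genes, 24 were tested, and 23 of these were lower in exosome RNA than in EC and RF, and their part in the member values was not tested.

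**Figure D2:**
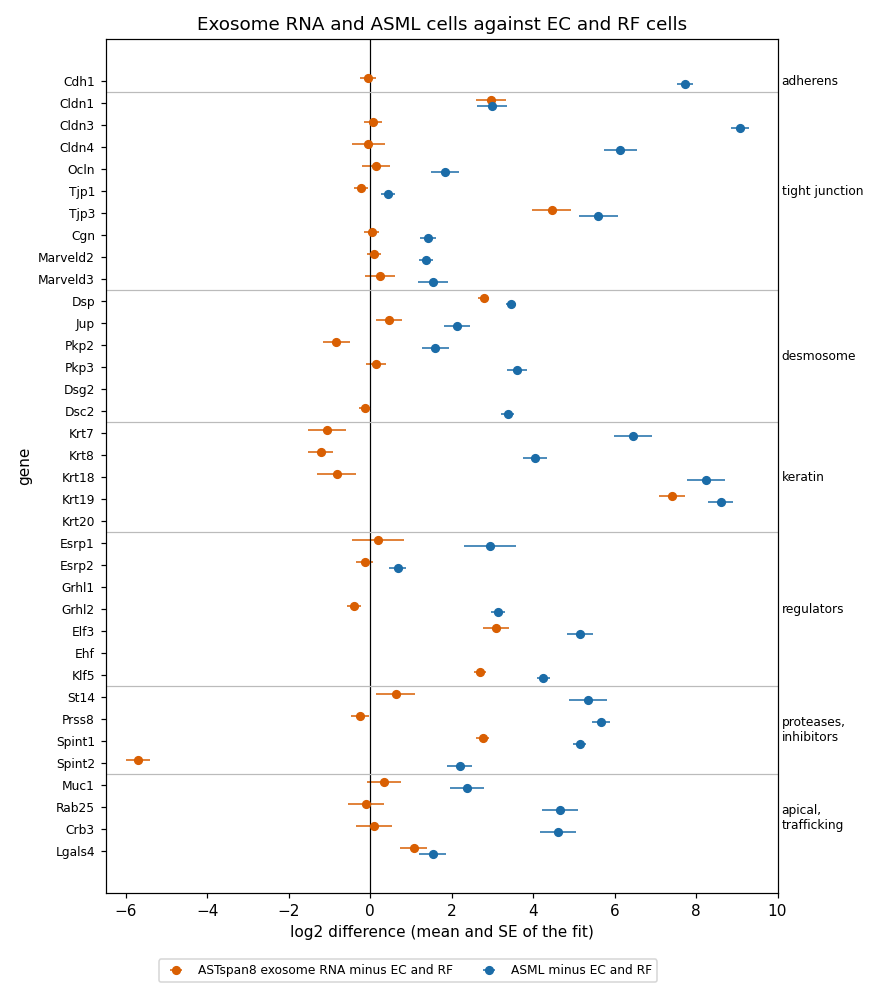
Log2 difference from EC and RF (horizontal axis; point and bar, mean and SE of the fit) for exosome RNA (orange) and ASML (blue), by gene and role; the 4 genes without points were not tested. ASML lies right of 0 for every gene shown, and exosome RNA lies far right of 0 for Krt19 (7.41), Tjp3 (4.45), Elf3 (3.08), Cldn1 (2.96), Dsp (2.78), Spint1 (2.76) and Klf5 (2.69), and far left for Spint2 (-5.7).

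Exosome RNA was also set against ASML wild type cells. Exosome RNA was lower for 31 of the 36 members (86.1%, where 37.5% of all probes tested were) and higher for none, at an adjusted or an unadjusted p under 0.05 in limma (28.1% of all probes tested were higher). Lgals4 did not pass (0.15 ± 0.56, adjusted p = 0.82) and 4 members were not tested. The median over all 36 was -2.5, against -0.16 over all probes tested, and both exosome RNA arrays were below the wild-type array for 34 of 36 (52.8% of all probes tested) and below both ASML arrays for 33 (39.1%). ASML wild type was 1 array, assumed in the fit to vary like the duplicated groups. Of the 32 members that passed the filter on low values, 16 did so through ASML arrays alone. For these, a lower value in exosome RNA was partly fixed by the filter.

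The differences of exosome RNA from ASML wild type spanned a wide range. They were -10.25 ± 0.07 for Krt18 (adjusted p = 7.08e-05), -9.43 ± 0.22 for Cldn3 (adjusted p = 0.000129), -8.53 ± 0.16 for Krt7 and -8.2 ± 0.1 for Cdh1 (adjusted p = 7.08e-05). Spint2 (-7.39 ± 0.15), Cldn4 (-7.25 ± 0.08), Prss8 (-6.21 ± 0.23), Rab25 (-5.95 ± 0.08), Krt8 (-5.84 ± 0.08), St14 (-5.74 ± 0.08) and Crb3 (-5.68 ± 0.11) followed. The genes that exosome RNA held well above EC and RF differed less than these, with -2.79 for Elf3, -2.64 for Spint1, -1.99 ± 0.1 for Krt19, -1.72 ± 0.1 for Klf5, -1.52 ± 0.08 for Tjp3, -1.01 ± 0.08 for Cldn1 and -0.72 ± 0.07 for Dsp. They were picked for high values on the same exosome RNA arrays, so a smaller difference follows in part from that choice. Members not raised in exosome RNA also differed little, among them Tjp1 (-0.56), Esrp2 (-1.25), Marveld2 (-1.59) and Cgn (-1.8). Against the mean of both ASML arrays, Cldn1 (-0.03, adjusted p = 0.966) and Tjp3 (-1.15, adjusted p = 0.151) no longer passed. Ocln (-2.05 ± 0.51, adjusted p = 0.0304) lost its call without either EC array of the ASTspan8 exosome pair, which enter the fit only through the spread (adjusted p = 0.119), and so did Marveld3 (-2.21, adjusted p = 0.0575). Lgals4 passed in opposite directions with 1 exosome RNA array at a time, at 0.77 with the array labelled replicate 1 (adjusted p = 0.0166) and -0.46 with the other (adjusted p = 0.0386).

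The array labelled CD44 knock-down was set against ASML wild type, 1 array each, with no replicate check. Of the 36 members, 15 were at least 2-fold lower on the knock-down array (41.7%, where 9.39% of all probes kept by the filter were), and 2 were at least 2-fold higher (5.56%, where 9.66% were). The 15 include the dim Krt20, which did not pass the filter. Of the 32 members that did, 16 passed through ASML arrays alone. In all, 31 members were lower by any amount and 5 higher, with a median of -0.84, against -0.07 over all probes kept. The 2 higher ones were Lgals4 (1.24) and Spint2 (1.01).

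By role, the 5 keratins were each at least 2-fold lower on the knock-down array: Krt18 (-2.33), Krt7 (-2.01), Krt19 (-1.6), Krt8 (-1.16) and the dim Krt20 (-1.02). The splicing regulator Esrp1 differed by -3.52, being 7.98 on the knock-down array, against 11.5 on the wild-type array, whereas Esrp2 differed by -0.9, Klf5 by -0.32 and Grhl2 by -0.21. Elf3 was the other regulator past 2-fold (-1.4). Rab25 (-2.38), Crb3 (-2.37) and Muc1 (-2.18), 3 of the 4 apical genes, passed 2-fold. Of 9 tight junction genes, 3 passed 2-fold: Cldn4 (-2.13), Cldn1 (-1.96) and Marveld3 (-1.82). Cldn3 (-0.86), Cgn (-0.83), Tjp3 (-0.73), Ocln (-0.72) and Marveld2 (-0.63) were lower by less, and Tjp1 was at 0.21. Of 6 desmosome genes, only Pkp3 passed 2-fold (-1.17), with Jup at -0.99, Dsp at -0.11, Pkp2 at 0.15 and Dsc2 at 0.39. St14 (-2.04) was the one protease past 2-fold, and Cdh1 differed by -0.81.

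**Figure D3:**
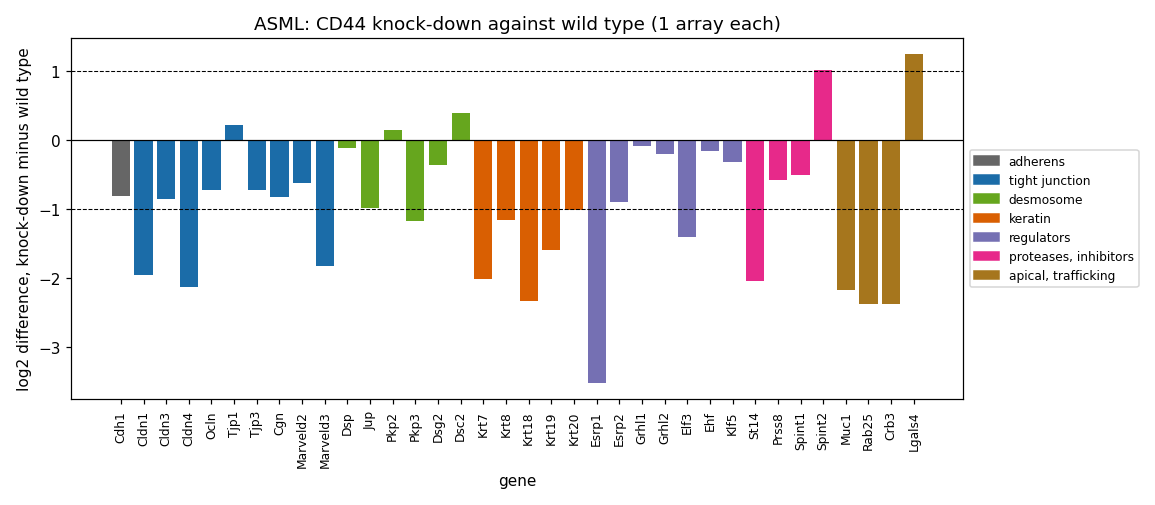
Log2 difference of the CD44 knock-down array from the ASML wild-type array (vertical axis, bars from 0) for each of the 36 genes, coloured by role, with dashed lines at 2-fold. Bars reach below the lower line for 15 genes, Esrp1 being lowest at -3.52, and above the upper line for Lgals4 (1.24) and Spint2 (1.01).

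Epithelial genes outside the 36 and mesenchymal genes were read on the same pair. Of 36 other epithelial genes, 9 were at least 2-fold lower on the knock-down array and 1 was higher (Mal2, 2.39), with a median of -0.36. The adhesion molecule Epcam had 13.89 on the knock-down array, against 14.24 on the wild-type array. Of 25 mesenchymal genes, 4 were at least 2-fold higher and none lower: S100a4 (16.59 against 12.52), Col3a1 (difference 3.53), Sparc (8.36 against 6.34) and Zeb1 (8.53 against 6.61), with a list median of 0.03. Vim had 12.7, against 13.1. The summed intensity of the mesenchymal list was 120989 on the knock-down array, against 27096 on the wild-type array, and S100a4 alone made nearly all of that gap: without it the sums were 22341 on the knock-down array and 21222 on the wild-type array. Of 15 leukocyte genes, 1 was at least 2-fold higher and 2 lower, and of 18 endothelial genes, 0 were higher and 1 lower. The part of these values in the member differences was not tested.

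The same lists were read across the other comparisons. Of 36 other epithelial genes on the array, 29 were tested, and in ASML against EC and RF 25 were higher and none was lower (Epcam 7.98 ± 0.16, Cldn7 7.72 ± 0.18, Lsr 6.64 ± 0.37 and Bspry 6.34 ± 0.2). In exosome RNA against EC and RF, 4 were higher (Bspry 2.64, Cldn12 0.97, Cldn23 0.83 and Krt14 0.52) and 6 were lower, among them Cdh3 (-2.77) and Ppl (-1.56). In exosome RNA against ASML wild type, 1 was higher (Cldn12, 1.16) and 26 were lower. All 24 mesenchymal genes tested were lower in ASML than in EC and RF. The lists were chosen with earlier results of these data known.

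EC and RF were treated with tumour exosomes to see how they respond, and few members passed in any of these comparisons. Of the 32 members that passed the filter on low values, 16 did so through ASML arrays alone and were dim in EC and RF. Krt19, which was at 13.54 and 13.6 in ASTspan8 exosome RNA, was at 6.05 and 6.2 in EC after ASTspan8 exosomes, against 6.2 in EC control, and at 6.08 in RF after ASTspan8 exosomes, against 6.09 in RF control. Cdh1, Cldn3 and Cldn4 stayed at 6.36 or below on all 7 arrays.

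In EC after ASTspan8 exosomes against EC control, 2 of 36 members were higher (12.1% of all probes tested were), 1 was lower (12%) and 29 did not pass. Elf3 had 7.92 and 8.01 after ASTspan8 exosomes, against 7.32 in EC control, a difference of 0.64 ± 0.1 (adjusted p = 0.0272). Krt18 had 7.84 and 7.85 after ASTspan8 exosomes, against 7.35 in control (0.5 ± 0.07, adjusted p = 0.0252). Tjp1 had 10.93 and 10.88 after ASTspan8 exosomes, against 11.35 in control, and was lower, with a difference of -0.45 ± 0.08 (adjusted p = 0.0372). Ocln (0.84 ± 0.51, adjusted p = 0.313) and Krt7 (-0.64 ± 0.16, adjusted p = 0.0609) did not pass. With EC arrays alone, Krt7 passed as lower and St14 (0.36) as higher, and Ocln still did not pass. The spread in the fit of 9 group means also came from the exosome RNA pair. Ocln had 9.58 and 8.46 in that pair, against 9.3 and 9.12 in the treated EC pair. In the same comparison 5 of 24 mesenchymal genes tested were higher and 2 lower, and 1 of 11 leukocyte genes tested was higher and 3 lower; their part in the member values was not tested. Without either treated array no member passed by limma, where 2 and 3 had an unadjusted p under 0.05. Against EC after AS exosomes, in which Elf3 had 7.27 and Tjp1 11.35, the same treated arrays were higher for Elf3 (0.7 ± 0.1, adjusted p = 0.034; 7.54% of all probes tested were) and lower for Tjp1 (-0.45 ± 0.08, adjusted p = 0.0483; 7.38%), and 30 members did not pass. These 2 comparisons share their treated arrays, and without a filter on low values no member passed in either by limma, where 6 had an unadjusted p under 0.05 in each.

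After AS exosomes, 1 member in each line differed at least 2-fold from control, on 1 array against 1. In EC after AS exosomes only Krt7 did, at 7.42, against 8.85 in control, a difference of -1.43 (1.03% of all probes kept were at least 2-fold lower, 0.0967% higher). In RF after AS exosomes only Pkp2 did, at 10.81, against 9.74 in control, a difference of 1.07 (0.983% higher, 1.18% lower). Of the 25 mesenchymal genes, 0 were at least 2-fold apart in EC after AS exosomes, and 5 were at least 2-fold lower in RF after AS exosomes, among them Lum (10.76, against 12.91 in control). Of the 18 endothelial genes, 1 was at least 2-fold lower in EC after AS exosomes (Vwf, 8.88 against 10.44). Of the 15 leukocyte genes, 0 were that far apart in either line. The part of these values in the member differences was not tested.

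RF after ASTspan8 exosomes differed from RF control at least 2-fold in 5 members, also 1 array against 1. Tjp3 had 8.97 after ASTspan8 exosomes, against 6.75 in control, a difference of 2.22, and Pkp2 had 11.49, against 9.74 (1.75); 4.64% of all probes kept were at least 2-fold higher. St14 had 8.06, against 9.5 (-1.44), Jup 8.26, against 9.51 (-1.25), and Spint2 12.01, against 13.07 (-1.06); 4.53% were at least 2-fold lower. Krt18 (0.9) and Krt8 (0.62) stayed short of 2-fold. Markers of other cell types moved on the same pair: 9 of 25 mesenchymal genes were at least 2-fold lower and 0 higher, and 2 of 15 leukocyte genes were at least 2-fold higher and 0 lower. These 2 were Lyz2 (8.17 after ASTspan8 exosomes, against 6.35 in control) and Cd68 (9.28, against 8.1), whereas the leukocyte marker Ptprc had 6.25, against 6.31. The summed intensity of the leukocyte list was 5198, against 5596 in control. The part of either list in the member differences was not tested. Against RF after AS exosomes, Tjp3 was higher by 2.05 (4.3% of all probes kept were at least 2-fold higher) and St14 differed by -1.14 (5.57% were at least 2-fold lower). On that pair 6 mesenchymal genes were at least 2-fold lower and 1 higher, and 2 leukocyte genes were higher. These comparisons share the array after ASTspan8 exosomes.

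The response to ASTspan8 exosomes was then compared between EC and RF, as the difference of treated from control in EC minus that in RF. It was higher in EC for 3 members (15.9% of all probes tested), lower for 4 (15.6%) and did not pass for 25. Tjp3 differed by -2.12 ± 0.13 (adjusted p = 0.0089), with treated minus control at 0.1 in EC and 2.22 in RF. Pkp2 differed by -1.72 ± 0.1 (adjusted p = 0.0089), at 0.03 in EC and 1.75 in RF. St14 differed by 1.79 ± 0.12 (adjusted p = 0.00914), at 0.36 in EC and -1.44 in RF, and Jup by 1.47 ± 0.1 (adjusted p = 0.0093), at 0.22 in EC and -1.25 in RF. Spint2, Krt8 and Tjp1 also passed, at 1.04 ± 0.22, -0.9 ± 0.12 and -0.56 ± 0.13. RF entered with 1 treated and 1 control array, and without either treated EC array none of the 7 passed by limma, where 5 members had an unadjusted p under 0.05 each time. Mesenchymal genes moved on the same arrays: 12 of 24 tested were higher and 1 lower in EC than in RF in this comparison, and the summed intensity of their list was 442964 in RF after ASTspan8 exosomes, against 1000341 in RF control (370749 against 730827 without S100a4). Their part in the member values was not tested.

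**Figure D4:**
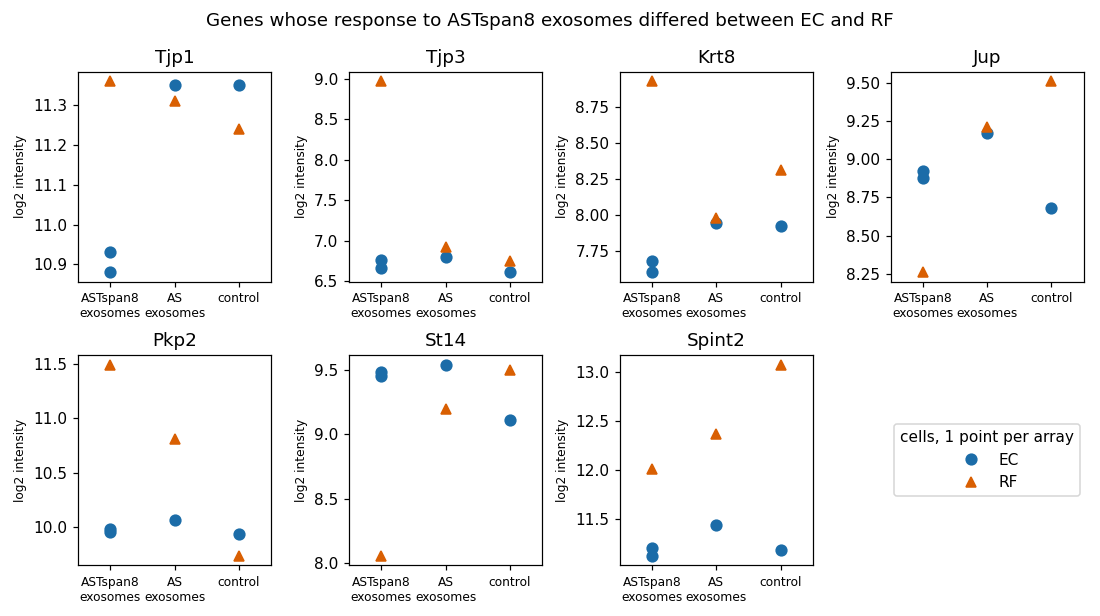
Log2 intensity (vertical axis, scaled for each gene) of the 7 members whose response to ASTspan8 exosomes differed between EC (circles) and RF (triangles), by treatment (horizontal axis), 1 point per array. Tjp3 lies at 8.97 in RF after ASTspan8 exosomes and at or below 6.92 on the other arrays, and St14 lies at 8.06 in RF after ASTspan8 exosomes and at or above 9.11 on the others.

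EC and RF arrays were last compared with each other at matched treatment. Of 36 members, 2 were higher in EC (5.09% of all probes tested were) and 1 was lower (3.44%). Krt18 was higher in EC by 0.68 ± 0.14 (adjusted p = 0.047) and Klf5 by 0.63 ± 0.12 (adjusted p = 0.0409), and Spint2 was lower in EC, with a difference of -1.18 ± 0.22 (adjusted p = 0.0348). Krt18 lost its call with the filter at the 75th percentile (adjusted p = 0.0556) and in the fit of source means (0.77, adjusted p = 0.364), and Klf5 with the mean of its probes (0.42, adjusted p = 0.0715). The calls also rested on few arrays, since no member passed by limma without EC after AS exosomes, without either EC array after ASTspan8 exosomes or without RF after AS exosomes (3 to 6 had an unadjusted p under 0.05). In turn, 1 passed without EC control or RF control, and 3 passed without RF after ASTspan8 exosomes.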

How the data were processed

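Rat RNA was measured on 11 one-colour Agilent arrays. Per the labels' protocols, RNA was extracted with Trizol, cleaned up on columns with DNase, and labelled as cRNA. The authors deposited normalized intensity values, not log transformed, and the normalization, background correction and software are not given in the sources used here. No further normalization was applied, since array medians differed by 0.08 on the log2 scale. The highest intensity was the same on all 11 arrays (422913), so a normalization between arrays before deposit is likely, by a method unknown here. Differences between exosome RNA and cells are therefore read relative to the other probes of an array, not as amounts of RNA.

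Values were floored at the 1st percentile (62.25), which raised 0.816% of them, and log2 transformed. Of 30367 probes, 18619 had a mean within-array percentile above 50 in at least 1 of 9 groups and were tested. Probes were named from the platform's annotation, with symbols updated through RefSeq (GRCr8, names only): 17237 matched by accession, 2569 by symbol and 551 by synonym, 12 kept the platform's symbol, and 9998 had none.

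Linear models were fitted and moderated with limma 3.58.1 under R 4.3.3, and p-values were adjusted by Benjamini-Hochberg over all probes tested, with a threshold of 0.05. ASML and exosome RNA against EC and RF came from a fit of 4 source means (7 residual degrees of freedom). The comparison of exosome RNA with ASML wild type, those of treated EC, and the EC and RF responses came from a fit of 9 group means (2 residual degrees of freedom, from the 2 groups with 2 arrays), in which the 7 single arrays were assumed to vary likewise. EC against RF came from an additive fit of line and treatment on their 7 arrays (3 residual degrees of freedom). Comparisons of 1 array with 1 were counted at 2-fold with no test. The scripts were tested on simulated data.

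All 36 members were named by rule, and members and gene lists were chosen with earlier results of these data known. The number of arrays limits the precision. Other filters, floors, normalization, probe rules and fits were tried, and each array was left out in turn.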

Additional observations from a re-analysis of the deposited data

Results flagged for a closer look

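For 7 members the effect of ASTspan8 exosomes (treated minus control, log2) differed between EC and RF by the interaction term of the limma fit. It was higher in EC for 3 (8.33%, where 15.9% of all probes tested were) and lower for 4 (11.1%, where 15.6% were). The member shares are over all 36, of which 4 were not tested. Of the 32 tested, 16 passed the filter on low values through ASML arrays alone and were dim in EC and RF. The lower shares are therefore not read as a trait of the members. RF entered with 1 treated and 1 control array, and every call was lost without either treated EC array. As EC effect minus RF effect, the difference was -2.12 for Tjp3 (adjusted p = 0.0089), -1.72 for Pkp2 (adjusted p = 0.0089), -0.90 for Krt8 (adjusted p = 0.0152) and -0.56 for Tjp1 (adjusted p = 0.0433). It was 1.79 for St14 (adjusted p = 0.00914), 1.47 for Jup (adjusted p = 0.0093) and 1.04 for Spint2 (adjusted p = 0.04). The effect in EC and in RF was -0.28 and 0.62 for Krt8, -0.45 and 0.12 for Tjp1, and -0.02 and -1.06 for Spint2. The calls of Tjp1 (adjusted p = 0.099) and Spint2 (adjusted p = 0.0745) were lost without a filter on low values, and that of Tjp1 also with the mean of its probes (adjusted p = 0.106). No group held 4 or more arrays, so single arrays were not screened for distance from their group.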

How the results depend on the processing

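No member called in the main setting changed direction under any alternative that was run; Lgals4, not called in exosome RNA against ASML wild type, passed in opposite directions with 1 exosome RNA array at a time (0.77 and -0.46). Counts of members called in ASML against EC and RF (31), exosome RNA against ASML wild type (31) and exosome RNA against EC and RF (10) stayed within 1.5 times, with 1 exception: the last was 17 in the fit of 9 group means, against untreated EC and RF alone (10 higher, 7 lower, 9 of them shared). With 1 array left out at a time, these counts ranged from 29 to 31, 29 to 32 and 8 to 12. In the fit of 9 group means only exosome RNA arrays and EC arrays after ASTspan8 exosomes could be left out. The second range therefore does not show how far that count rested on the single ASML wild-type array. For EC after ASTspan8 exosomes against control (3), the count was 0 without a filter on low values, 8 with a filter at the 75th percentile, 5 with trend and robust eBayes, 5 with EC arrays alone, and 0 to 5 with 1 array left out. Against EC after AS exosomes (2), it was 0 without a filter, 7 at the 75th percentile, 1 with the mean of a gene's probes, 0 with EC arrays alone (10 at an unadjusted p under 0.05 in limma), and 0 to 0 with 1 array left out (2 to 10 unadjusted). For the EC response to ASTspan8 exosomes against the RF response (7), it was 11 at the 75th percentile, 12 with EC and RF arrays alone, and 0 to 12 with 1 array left out. For EC against RF (3) it was 0 to 3 with 1 array left out. The cause was not tested for any of these.

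For single arrays, counts move with the fold by construction. CD44 knock-down against wild type (17 at 2-fold) had 11 at 3-fold. EC after AS exosomes against control (1) had 0 at 3-fold, and RF after AS exosomes against control (1) had 3 at 1.5-fold and 0 at 3-fold. RF after ASTspan8 exosomes had 8 at 1.5-fold and 2 at 3-fold against control (5 at 2-fold), and 6 and 1 against AS exosomes (2 at 2-fold).

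No paired analysis was possible by replicate number, because the groups compared share fewer than 2 numbers; EC and RF were matched by treatment in the additive fit. Signals near the floor limit what dim genes can show.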

Other observations

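The largest differences between duplicate exosome RNA arrays among the members were those of Krt20 (7.85 on the array labelled replicate 1 and 6.22 on the other), Lgals4 (7.89 and 6.66) and Ocln (9.58 and 8.46). By these probes all 3 were higher on the array that also had the higher Cd44 signal (11.11, against 6.02 on the other). A second Lgals4 probe went the other way, with 6.33 on the array labelled replicate 1 and 6.66 on the other. Mal2, an apical sorting protein outside the 36, had 8.61 on the CD44 knock-down array and 6.22 on the ASML wild-type array, where it was as dim as on the EC and RF arrays (6.09 to 6.19). Ovol1, an epithelial zinc finger factor outside the 36, was 7.25 in EC after AS exosomes, against 8.98 in EC control, on 1 array each. Both were chosen after their values were seen.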
